A study of Homo sapiens with 4 samples.

Results

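The metallothionein family was followed through 7 genes, MT1A, MT1E, MT1F, MT1G, MT1M, MT1X and MT2A, of the 58884 genes in the deposited table. The genes were chosen by symbol, with their TPM values in all 4 columns already known, so their levels and ratios are given as descriptions without tests. The study measured total RNA by Illumina sequencing in 4 libraries, 1 per group. FTC-133, a human follicular thyroid carcinoma line, was transfected either with empty vector or so as to overexpress CRABP1, a cytoplasmic carrier of retinoic acid. 8505C, a human anaplastic thyroid carcinoma line, was treated in the same manner. The labels name no further treatment, clone or time point and leave unstated whether the cells were cultured separately. The comparisons ask how metallothionein RNA differs with CRABP1 in each line and between the lines.

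Metallothioneins are small, cysteine-rich proteins that bind zinc and copper and buffer cadmium. Free zinc activates the transcription factor MTF1, which binds metal response elements upstream of these genes and of SLC30A1, the plasma membrane zinc exporter, and glucocorticoids and interleukin 6 are further known inducers. MT2A is the broadly expressed form, MT1 genes differ between tissues, and MT1G has been described as silenced by promoter methylation in thyroid cancer.

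The coding sequences of the 7 genes show how alike the members are. Each holds 186 bases and 61 codons before the stop, of which 20 are tgc or tgt, the cysteine codons. Identity between pairs of members lay between 88.7% (MT1F and MT1X) and 95.2% (MT1G and MT2A). The 3 members with the highest values in at least 1 library are printed from the GENCODE 29 transcripts (GRCh38), 5′ to 3′, with capitals at each base that differs from MT2A at the same position. MT1E and MT1X each differ at 14 positions.
MT2A: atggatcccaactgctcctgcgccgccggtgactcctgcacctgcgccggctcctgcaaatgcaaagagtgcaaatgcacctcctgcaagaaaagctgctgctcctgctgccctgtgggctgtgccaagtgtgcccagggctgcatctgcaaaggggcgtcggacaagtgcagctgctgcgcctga
MT1E: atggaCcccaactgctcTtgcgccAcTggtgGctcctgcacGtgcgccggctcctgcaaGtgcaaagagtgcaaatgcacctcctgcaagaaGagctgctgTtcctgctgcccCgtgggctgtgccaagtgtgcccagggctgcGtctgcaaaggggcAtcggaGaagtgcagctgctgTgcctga
MT1X: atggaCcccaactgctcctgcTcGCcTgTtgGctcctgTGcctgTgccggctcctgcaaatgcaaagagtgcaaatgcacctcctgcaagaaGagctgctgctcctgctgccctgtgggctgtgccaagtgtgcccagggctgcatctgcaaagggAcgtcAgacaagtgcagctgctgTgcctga

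Despite this likeness, long windows were distinct. Of all 100-base windows of the principal transcripts, 0% of those of MT2A, MT1E, MT1A, MT1F, MT1G and MT1M occurred exactly in a transcript of another gene. At 50 bases the share was 5.34% for MT1E, 4.88% for MT2A, 5.76% for MT1A, 3.59% for MT1F, 7.05% for MT1M and 20.2% for MT1G. MT1X was the exception, with 45.1% at 50 bases and 19.1% at 100 bases. Its 100-base matches lay in AC026461.1, a transcript on the same strand that shares 321 of the 1773 exon bases of MT1X. The read length is not given in the sources used here, and the search covered annotated transcripts only, with no mismatch allowed. The split of reads between MT1X and AC026461.1 is therefore uncertain.

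Metal response elements were searched as TGCACNC or TGCGCNC on both strands of the 250 bases before the RefSeq start (GRCh38.p14). The RefSeq table matched 2 of the 7 members, MT2A and MT1X, and 5 of the 21 family genes searched by symbol. MT2A held 7 matches and MT1X 4, whereas 0.370% of 35116 promoters held at least 4. MT1H, which had 1 read in 1 library, held 8, and MT1B and MT4, with 0 reads, held 3 each, a number that 1.58% of promoters reached or passed. Matches are capitalised below for a pair of genes read in every library and for MT1H, which was hardly read. GENCODE 29 starts MT2A further upstream, so only 2 stretches of 30 bases of MT2A are shown, and MT1X is shown up to its GENCODE start.
MT2A, chr16:56608424-56608453, plus strand: agccgggTGCGCCCggcccagTGCGCGCgg
MT2A, chr16:56608518-56608547, plus strand: gggcggggctttTGCACTCgtcccggctct
MT1X, chr16:56682220-56682423, plus strand: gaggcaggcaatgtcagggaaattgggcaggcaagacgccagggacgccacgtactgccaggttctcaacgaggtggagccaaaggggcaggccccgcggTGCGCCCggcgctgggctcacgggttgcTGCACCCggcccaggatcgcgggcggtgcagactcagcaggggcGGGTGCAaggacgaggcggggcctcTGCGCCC
MT1H, chr16:56669564-56669813, plus strand: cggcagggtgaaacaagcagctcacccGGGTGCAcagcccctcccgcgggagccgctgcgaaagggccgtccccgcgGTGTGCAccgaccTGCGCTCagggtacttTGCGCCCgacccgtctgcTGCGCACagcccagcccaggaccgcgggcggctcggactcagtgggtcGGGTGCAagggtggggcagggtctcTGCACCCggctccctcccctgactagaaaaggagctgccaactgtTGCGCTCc

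MT1H thus held the most matches of the 5 windows and had 1 read. TATAAA on the plus strand was present once in MT2A, MT1X, MT1B and MT4 and not in the MT1H window, and 6.80% of promoters held it. CG dinucleotides numbered 32 in MT2A, 22 in MT1X, 22 in MT1H, 7 in MT1B and 6 in MT4, against a median of 11 over all promoters. GGGCGG, on both strands, was found 2 times in MT2A and 2 times in MT1X, where 1 copy overlaps a metal response element, once in MT1H and MT1B, and in 42.6% of promoters. TGACTCA, on both strands, was found once in MT2A and MT1B and in 4.20% of promoters. A match describes letters only, and no binding was measured.

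**Figure D1:**
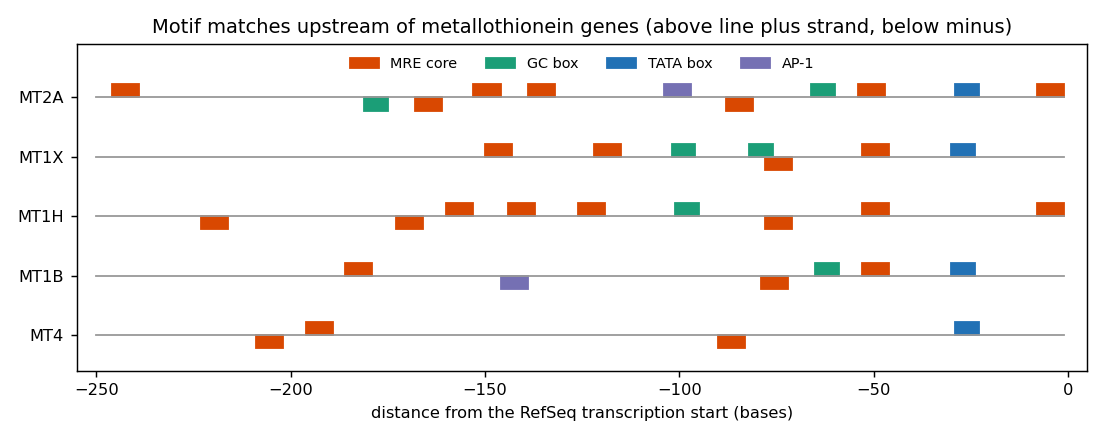
Motif matches in the 250 bases before the RefSeq start of 5 metallothionein genes; the x axis is distance from the start in bases, boxes above a line are plus-strand and boxes below are minus-strand matches. MT2A has 7 metal response element matches, MT1X 4 and the hardly read MT1H 8.

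Depth was alike in the 4 libraries. Reads were recovered from TPM, that is reads per gene length scaled to the same total, by multiplying with gene length, which gave 19174544 to 20331540 reads per library. Between 72.4% and 75.8% of values came out whole, and the others, MT2A among them, were rounded or rescaled in length. CRABP1 was at 0 with vector in either line and at 385 and 537 TPM in the CRABP1 libraries of FTC-133 and 8505C. Of 17 thyroid epithelial markers, 10 and 9 reached 1 TPM in FTC-133 with vector and CRABP1 and 5 and 5 in 8505C; the iodide transporter SLC5A5 was at 0 in all 4, TSHR and CDH1 were at 0 in both 8505C libraries, and thyroglobulin, TG, was at most at 0.681 TPM. The thyroid factor PAX8 was at 100.1 and 143 TPM in FTC-133 but at 0.240 and 0.161 TPM in 8505C, whereas NKX2-1, another thyroid factor, was at 44.7 and 17.7 TPM and at 118 and 113 TPM. With vector, 5 of the 8 measured thyroid epithelial markers were past 2-fold higher in 8505C (NKX2-1, HHEX, KRT7, KRT8 and KRT18) and 3 lower (PAX8, FOXE1 and EPCAM). Over all genes, 12.1% passed 2-fold upward and 21.6% downward in this comparison. The summed level of the 17 markers was 508 and 567 TPM in FTC-133 but 2350 and 1977 TPM in 8505C, most of it from KRT7, KRT8 and KRT18. The summed level of 10 immune markers was 1.20 and 1.30 TPM in FTC-133 and 56.8 and 28.9 TPM in 8505C, where CD14 alone held 56.5 and 28.6 TPM and CD68, CD163 and LYZ were at 0. The sums of 8 fibroblast markers were 677 and 426 TPM in FTC-133, mostly from COL1A1 and COL1A2, and 57.4 and 78.7 TPM in 8505C, mostly from COL3A1 at 50.02 and 65.95 TPM. Those of 7 endothelial markers were 7.94, 9.79, 109.9 and 101 TPM in the same order, and CDH5 alone held 103 and 97.9 TPM in 8505C, where VWF, KDR and TEK were lower than in FTC-133. The part of these in the metallothionein values was not tested, and in bulk RNA fewer cells of a type and less RNA per cell cannot be told apart. The marker genes named by the rule of at most 2 per list were, with vector and CRABP1, NKX2-1, FOXE1 (8.06 and 15.2 TPM), COL1A1 (388 and 175 TPM) and TEK (1.95 and 3.91 TPM) in FTC-133, and LUM (1.99 and 6.42 TPM), PECAM1 (3.68 and 2.19 TPM) and CD14 in 8505C.

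MT2A carried most of the metallothionein RNA in every library. MT2A (ENSG00000125148; GRCh38, chromosome 16, 56608199 to 56609497, plus strand) was at 460.0 TPM in the vector and 560.4 TPM in the CRABP1 library of FTC-133, and at 541 TPM and 462 TPM in those of 8505C, from about 3253, 3842, 3576 and 3044 reads. It ranked 166, 141, 169 and 214 among all genes. The 4 libraries thus lay close together, with the FTC-133 CRABP1 library highest and the lines overlapping. Its share of the 7 members' summed TPM was 72.5% and 71.4% in FTC-133, compared with 94.6% and 94.9% in 8505C.

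MT1E was abundant in FTC-133 and was listed at 0 in 8505C. MT1E (ENSG00000169715; chromosome 16, 56625475 to 56627112, plus strand) is a member of the MT1 group whose coding sequence is shown above. It was at 156 TPM in the vector library of FTC-133 and 205 TPM in its CRABP1 library, from 891 and 1138 reads, and had 0 reads in both 8505C libraries. A count of 0 allows up to 3 reads, or 0.561 and 0.562 TPM, so MT1E was at least 278-fold lower in 8505C with vector and at least 365-fold lower with CRABP1. It made up 24.5% and 26.1% of the members' sum in FTC-133. Of 1214 protein-coding genes with at least 100 TPM in both FTC-133 libraries, 2 were listed at 0 in both 8505C libraries, MT1E and the imprinted gene PEG10; the reverse pattern was found for 0 of 1286 genes. This count was made after the values were seen.

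MT1X and MT1A were present in all 4 libraries and higher in 8505C. MT1X (ENSG00000187193; chromosome 16, 56682424 to 56684196, plus strand) was at 10.3 and 12.5 TPM in FTC-133 and 19.8 and 18.5 TPM in 8505C, vector first and CRABP1 next, from 97, 114, 174 and 162 reads. Both 8505C libraries lay above both FTC-133 libraries. MT1A (ENSG00000205362; chromosome 16, 56638666 to 56640087, plus strand) was at 4.17 and 2.87 TPM in FTC-133 and 10.9 and 6.47 TPM in 8505C, from 9, 6, 22 and 13 reads. For MT1A too, both 8505C libraries lay above both FTC-133 libraries, but so few reads leave wide counting intervals. The exact Poisson 95% interval was 1.05 to 6.25 for 2.87 TPM and 3.45 to 11.1 for 6.47 TPM, which overlap.

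MT1F, MT1G and MT1M were low and were read almost wholly in FTC-133. MT1F (ENSG00000198417; chromosome 16, 56657694 to 56660698, plus strand) was at 3.37 and 3.07 TPM in FTC-133 from 34 and 30 reads, at 0.106 TPM from 1 read in 8505C with vector and at 0 with CRABP1. MT1G (ENSG00000125144; chromosome 16, 56666731 to 56668065, minus strand), the member described as silenced in thyroid cancer, was at 0.980 and 0.253 TPM in FTC-133 from 4 reads and 1 read and at 0 in 8505C. MT1M (ENSG00000205364; chromosome 16, 56632233 to 56633986, plus strand) was at 0.742 TPM from about 4 reads in FTC-133 with CRABP1 and at 0 in the other libraries. At these depths differences of MT1G and MT1M between libraries were not detectable: 0 reads allow up to 0.786 and 0.789 TPM of MT1G in 8505C, and up to 0.585 TPM of MT1M in FTC-133 with vector. Of the protein-coding family genes outside the 7, MT3 reached at most 0.400 TPM and MT1H 0.254 TPM, in 1 library each.

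**Figure D2:**
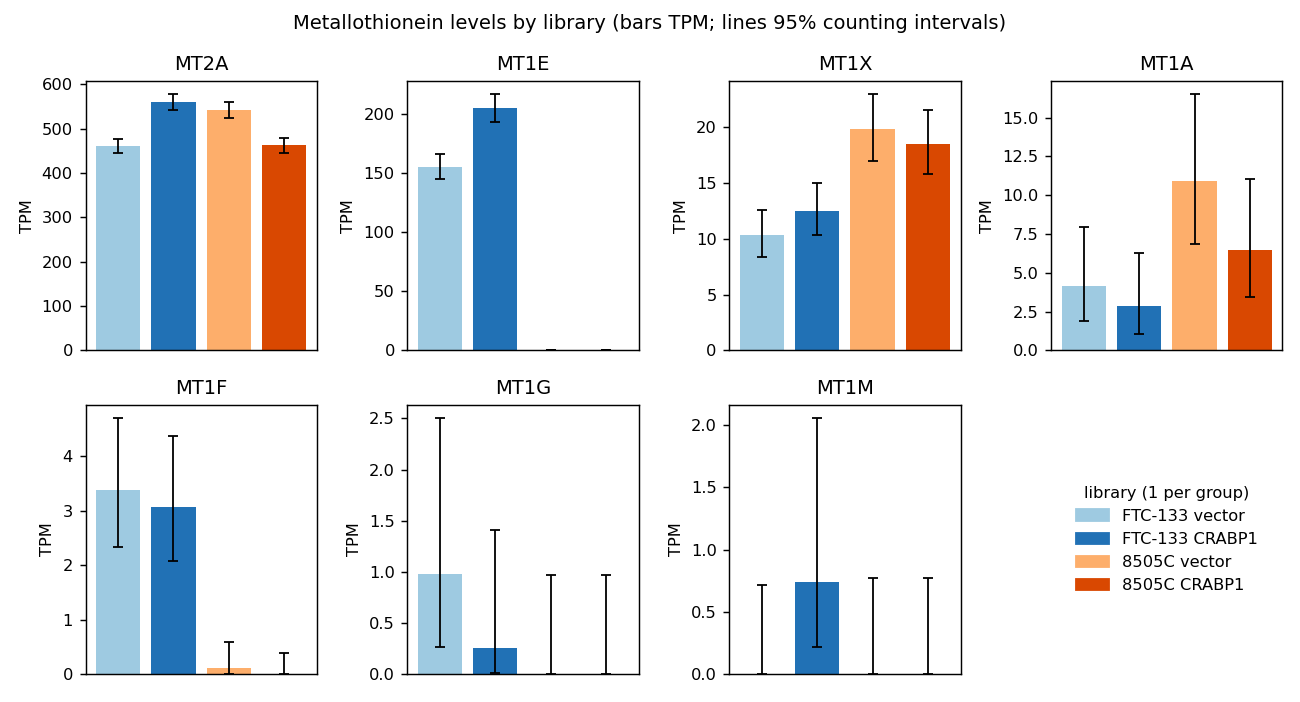
TPM of the 7 members in each library, 1 bar per library, each panel with its own axis from 0; lines are exact Poisson 95% intervals for counting error only. MT2A lies between 460.0 and 560.4 TPM in the 4 libraries, while MT1E is at 156 and 205 TPM in FTC-133 and at 0 in 8505C.

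The order of levels within a library was MT2A, MT1E, MT1X, MT1A, MT1F, MT1G in FTC-133 with vector and MT2A, MT1X, MT1A, MT1F in 8505C with vector. With CRABP1 it was MT2A, MT1E, MT1X, MT1F, MT1A, MT1M, MT1G in FTC-133, and MT2A, MT1X, MT1A in 8505C. In FTC-133 with vector, MT1A at 4.17 TPM (1.91 to 7.92), MT1F at 3.37 TPM (2.34 to 4.71) and MT1G at 0.980 TPM (0.267 to 2.51) were neighbours whose intervals overlapped. The other neighbours in that library, and all neighbours in 8505C with vector, had intervals that did not overlap. The deposited TPM divides by all annotated exon bases, which exceed the principal transcript for most members. Scaled to principal transcript length, the values in FTC-133 with vector were 760 for MT2A, 232 for MT1E, 39.6 for MT1X, 9.05 for MT1F and 4.17 for MT1A. MT1F then lay above MT1A. In 8505C with vector the values of the same genes were 894, 0, 76.0, 0.285 and 10.9. There the order of MT2A, MT1X, MT1A and MT1F was unchanged. The scaled values take every read as from the principal transcript and were not brought back to a common total, so they compare members only. The exon length behind the TPM of MT2A was not settled.

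The genes on either side of the cluster differed less between the lines than MT1E or MT1F. All 7 members lie with 9 other family genes between 56565049 and 56684196, a stretch of 119 kb bounded by BBS2 (56466836 to 56520283, minus strand), a subunit of the ciliary BBSome, and NUP93 (56730105 to 56850286, plus strand), a nuclear pore protein. BBS2 was at 35.0 and 39.3 TPM in FTC-133 and 36.0 and 36.9 TPM in 8505C, and NUP93 at 23.0 and 30.4 TPM and at 19.5 and 22.9 TPM. The ratio of 8505C to FTC-133 with vector was 1.03 for BBS2 (95% Clopper-Pearson interval 0.958 to 1.10) and 0.850 for NUP93 (0.785 to 0.920). Within the stretch, genes near 0 in 8505C lay between genes that were read there: MT1L, MT1E and MT1M lie between MT2A and MT1A, and MT1F, MT1G and MT1H between MT1A and MT1X. Of 22 neighbouring genes in the table, 16 were measured with CRABP1 against vector in each line. In FTC-133, 12 were above and 4 below 0 (median 0.18), and in 8505C 13 above and 3 below 0 (median 0.17). Past 2-fold were 0 of them. Over all genes 6.02% passed upward and 4.92% downward in FTC-133, and 3.7% and 4.07% in 8505C. ARL2BP, a binding partner of the GTPase ARL2, was at 1.84 and 2.85 TPM in FTC-133 and at 4.14 and 5.34 TPM in 8505C.

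Of the 21 family genes in the table, 8 had reads in FTC-133 and 0 in both 8505C libraries: MT1E, MT1G, MT1H, MT1M, MT3, MT1L, MT1DP and MT1P1. Over the whole table FTC-133 also had more genes above 0, 29276 and 29508, against 26114 and 25928 in 8505C. The share of all genes with the pattern of these 8 was not computed, so their number is a description only. Of the 8, all but MT1E and MT1L had at most 4 reads in any library. The pseudogene MT1L, between MT2A and MT1E, was the best read of the non-members, at 13.4 TPM (30 reads) and 30.0 TPM (65 reads) in FTC-133. MT1DP had 2 and 4 reads and MT1P1 0 and 2. MT1A, MT1X and MT2A had reads in all 4 libraries, and 7 genes (MT1B, MT4, MT1HL1, MT1JP, MT1CP, MT1IP and MT1P3) in 0. MT2P1 had 1 read, in 8505C with CRABP1, and MT1XP1 had 1 and 5 reads in FTC-133 and 0 and 1 in 8505C. Reads of such copies are uncertain, since near-identical sequence can place a read at either gene.

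**Figure D3:**
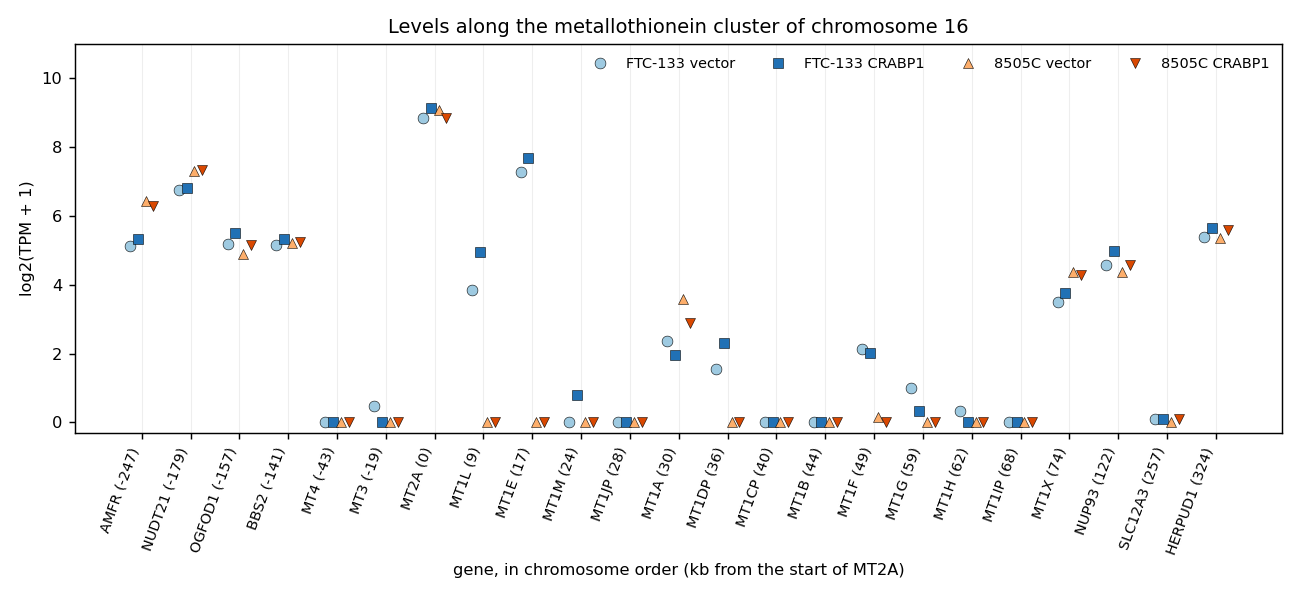
Levels as log2(TPM + 1) of 16 metallothionein genes and pseudogenes and 7 flanking genes in chromosome order, with the distance of each start from MT2A in kb in brackets; 4 symbols mark the 4 libraries. MT1L and MT1E are above 3 in FTC-133 only, while MT2A, MT1A, MT1X, BBS2 and NUP93 have all 4 symbols above 0.

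Between the lines, the members split in direction. On log2(TPM + 1) with vector, 8505C minus FTC-133 was 1.20 for MT1A, 0.88 for MT1X, 0.23 for MT2A, -1.98 for MT1F and -7.29 for MT1E, while the median of the 19470 genes averaging 1 TPM or more was -0.17. Past a 2-fold threshold were 1 member upward (MT1A) and 2 downward (MT1E and MT1F), where 12.1% of all genes passed upward and 21.6% downward. With CRABP1, 0 members passed upward against 11.3% of all genes, and MT1E and MT1F passed downward against 23% of all genes. MT1E and MT1F met the 1 TPM minimum through FTC-133 alone, so their count supports nothing.

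As plain ratios, MT1X was 1.92-fold higher in 8505C with vector (1.49 to 2.49) and 1.48-fold with CRABP1 (1.16 to 1.90), and MT1A 2.62-fold (1.16 to 6.45) and 2.25-fold (0.799 to 7.23). MT1F was 31.8-fold lower with vector (5.33 to 1291, from 34 reads and 1 read). With CRABP1 it was 9.61-fold lower against the floor of 3 reads. MT2A went either way, 1.18-fold higher with vector (1.12 to 1.23) and 1.21-fold lower with CRABP1 (1.16 to 1.27). With vector the members' sum was 634 TPM in FTC-133, against 572 TPM in 8505C, 1.11-fold lower in 8505C (1.06 to 1.16), and with CRABP1 it was 785 against 487 TPM, 1.61-fold lower (1.54 to 1.69). Without MT2A the sum was 174 TPM against 30.8 TPM with vector and 224 TPM against 24.97 TPM with CRABP1, 5.66-fold and 8.99-fold lower in 8505C. Median-ratio scaling of the libraries shifts every 8505C to FTC-133 comparison by 0.15 with vector and 0.19 with CRABP1 on the log2 scale, and the sum with vector then had a ratio of 1.001 and was no longer lower in 8505C. The MT2A difference was then 0.39 with vector and -0.08 with CRABP1.

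With CRABP1 in FTC-133, MT2A and MT1E were higher than with vector beyond counting error, by less than 2-fold. MT2A was 1.22-fold higher (1.16 to 1.28), MT1E 1.32-fold (1.21 to 1.44) and MT1X 1.21-fold (0.917 to 1.61). MT1A had a ratio of 0.688 (0.201 to 2.16) and MT1F of 0.910 (0.538 to 1.53), so these and MT1X were within counting error of 1. So was MT1G at 0.258 (0.00524 to 2.61, from 4 reads and 1 read), and MT1M went from 0 to about 4 reads. The members' sum was 1.24-fold higher (1.19 to 1.29). Of the 7 members, 5 had a mean of at least 1 TPM and 0 passed 2-fold, where 6.02% of 19899 genes passed upward and 4.92% downward.

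The pseudogene MT1L was 2.24-fold higher with CRABP1 in this line (1.43 to 3.57). Beside it, the log2(TPM + 1) differences of MT1E, MT2A and MT1X were 0.40, 0.28 and 0.26, and the median over all genes was 0.06. The mitochondrially encoded genes took 28.6% of TPM with vector and 25.9% with CRABP1, which raises the TPM of every other gene. With these genes left out the members' sum was 1.19-fold higher.

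With CRABP1 in 8505C, each member read there was lower than with vector. MT2A was 1.17-fold lower (1.12 to 1.23), MT1X 1.07-fold (0.860 to 1.33) and MT1A 1.69-fold (0.813 to 3.65), and MT1F went from 1 read to 0. The interval of MT2A excluded 1, and those of MT1X and MT1A did not. The sum was 1.17-fold lower (1.12 to 1.23). Of the 7 members, 3 had a mean of at least 1 TPM and 0 passed 2-fold, where 3.7% of 17561 genes passed upward and 4.07% downward.

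**Figure D4:**
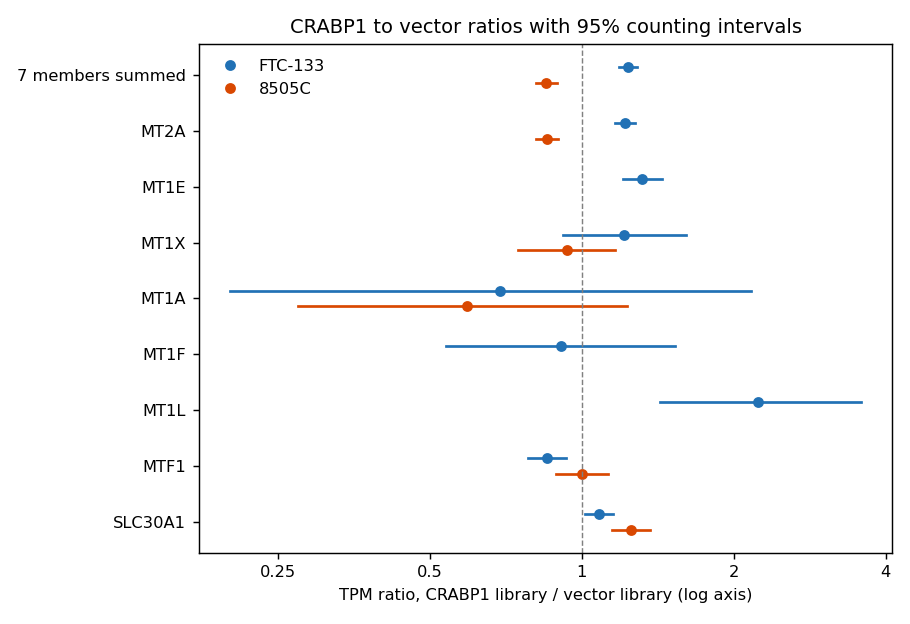
TPM ratio of the CRABP1 library to the vector library on a log axis, with 95% Clopper-Pearson counting intervals as lines, for the members' sum, 5 members, MT1L, MTF1 and SLC30A1; genes with no reads in 1 of the libraries have no point. The sum and MT2A lie above 1 in FTC-133 (1.24 and 1.22) and below 1 in 8505C (0.852 and 0.854).

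Intervals that exclude 1 were common at the depth of MT2A. Of protein-coding genes that reached 1000 reads over both libraries, 65.6% of 7103 genes in FTC-133 and 49.3% of 6431 genes in 8505C had an interval that excluded 1. MT2A and MT1E were the members at this depth in FTC-133 and MT2A in 8505C. A larger absolute log2(TPM + 1) difference than that of MT2A was found for 26.3% of these genes in FTC-133 and 16.2% in 8505C. MT2A was 1 of 419 genes, 7.17% of 5846, whose intervals lay above 1 in FTC-133 and below 1 in 8505C, and 9.65% went the reverse way. Between the lines the share with an interval that excluded 1 was 86.1% with vector and 85.8% with CRABP1.

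MTF1, the zinc sensor that drives metallothionein genes, was at 26.5 and 22.6 TPM in FTC-133 and 13.9 and 13.9 TPM in 8505C, with vector and CRABP1. It was lower in 8505C, at a ratio of 0.525 with vector (0.474 to 0.581), and its CRABP1 to vector ratio was 0.852 in FTC-133 (0.781 to 0.929) and 0.9995 in 8505C (0.888 to 1.12). SLC30A1, the zinc exporter under MTF1, was at 63.9 and 69.2 TPM in FTC-133 and 34.2 and 42.7 TPM in 8505C. Its CRABP1 to vector ratio was above 1 in both lines, at 1.08 (1.02 to 1.15) and 1.25 (1.15 to 1.36), whereas that of MT2A was above 1 in FTC-133 only. The glucocorticoid receptor NR3C1 was at 71.5 and 75.6 TPM in FTC-133 and 138 and 123 TPM in 8505C.

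Zinc transporters went in both directions with CRABP1. Of 10 exporters of the SLC30 family, 7 were measured in FTC-133, with 4 above and 3 below 0, and 6 in 8505C, with 3 above and 3 below 0; the medians were 0.05 and -0.03 against 0.06 and 0.02 over all genes. Of 14 importers of the SLC39 family, 10 were measured in FTC-133 (median 0.12) and 11 in 8505C (median -0.01). In both families 0 genes passed 2-fold in either line, where 6.02% and 4.92% of all genes passed upward and downward in FTC-133, compared with 3.7% and 4.07% in 8505C. SLC39A8, an importer of zinc and manganese, was at 35.7 and 30.3 TPM in FTC-133 and 16.8 and 11.1 TPM in 8505C, where it was 1.51-fold lower with CRABP1 (1.32 to 1.72), and SLC39A14 at 144 and 182 TPM and at 53.3 and 61.9 TPM. SLC30A8, an exporter of secretory granules, was at 1.87 and 1.21 TPM in FTC-133 and at 0 in 8505C.

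Regulators of the family had medians of 0.03 in FTC-133 and -0.03 in 8505C over 10 of 11 genes, with 0 past 2-fold. EZH2, a histone methyltransferase, was at 28.3 and 44.2 TPM in 8505C and 76.8 and 70.4 TPM in FTC-133, and STAT3, the transcription factor of interleukin 6 signals, at 69.4 and 53.1 TPM in FTC-133 and 105 and 91.7 TPM in 8505C. Of 18 genes of interleukin 6 and STAT3 signalling, 13 were measured in FTC-133, 7 above and 6 below 0, with 2 past 2-fold upward and 0 downward and a median of 0.28. In 8505C 14 were measured, 2 above and 12 below 0, with 0 past 2-fold upward and 2 downward and a median of -0.19. Over all genes the medians were 0.06 and 0.02, and 6.02% passed 2-fold upward and 4.92% downward in FTC-133, compared with 3.7% and 4.07% in 8505C. IL6 itself was at 33.5 and 189 TPM in FTC-133 and 31.1 and 20.8 TPM in 8505C, and the factor CEBPD at 28.8 and 35.2 TPM and at 69.3 and 33.2 TPM.

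Glucocorticoid response genes had medians of 0.14 over 11 genes in FTC-133 and -0.12 over 13 in 8505C. NFKBIA, an inhibitor of NF-kB, was at 69.6 and 159 TPM in FTC-133 and 78.4 and 50.6 TPM in 8505C, and MAOA, a monoamine oxidase, at 6.31 and 3.19 TPM and at 32.7 and 29.9 TPM. Genes induced by metal and oxidative stress, 14 measured of 16, had a median of -0.02 in FTC-133, against 0.22 in 8505C. The cystine transporter SLC7A11 was at 13.6 and 49.2 TPM in 8505C and 79.6 and 115 TPM in FTC-133, and the chaperone HSPA1B at 31.9 and 18.1 TPM in FTC-133 and 52.7 and 47.6 TPM in 8505C.

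**Figure D5:**
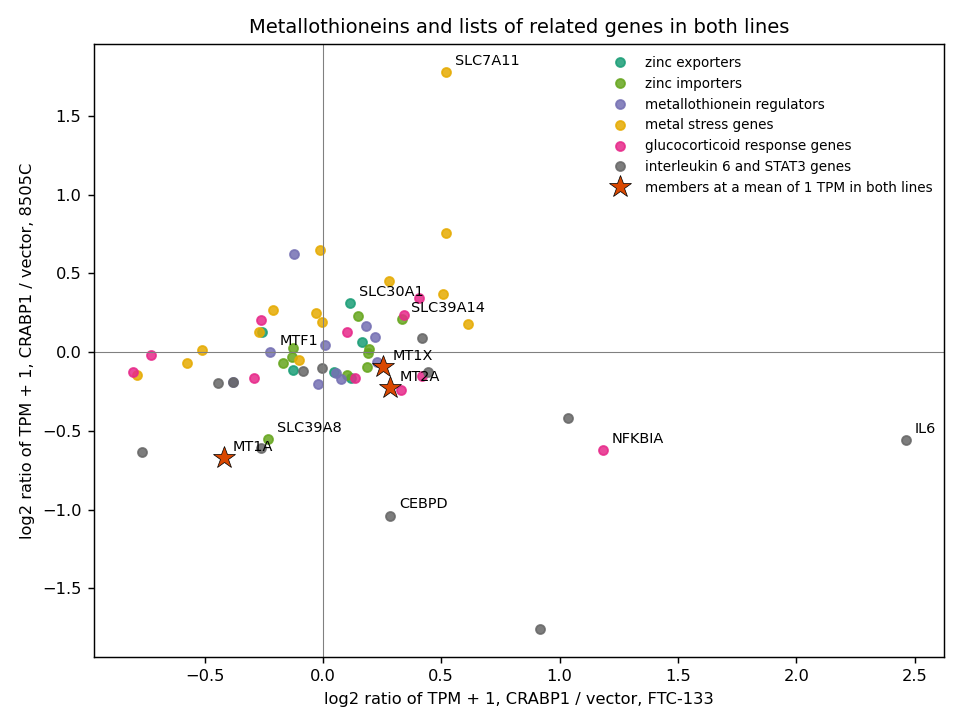
Log2 ratio of TPM + 1, CRABP1 to vector, in FTC-133 (x) and 8505C (y) for genes averaging 1 TPM or more in each line; circles are 6 gene lists by colour and stars are MT2A, MT1X and MT1A. The stars lie within 0.7 of 0 on both axes, with MT2A at 0.28 and -0.23, while IL6 is at 2.46 and -0.56 and SLC7A11 at 0.52 and 1.78.

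The genes most like the members' sum over the 4 libraries were CHMP1B, an ESCRT subunit, ACBD6, the ephrin EFNB3, the kinase DYRK4 and DGAT1, a triglyceride synthesis enzyme. Likeness was the Euclidean distance between log2(TPM + 1) values centred on each gene's mean, over 12905 protein-coding genes and 4 libraries. Distances were 0.04 for CHMP1B and 0.05 for each of the others. CHMP1B was at 44.9, 53.9, 39.2 and 32.9 TPM in FTC-133 with vector and CRABP1 and 8505C with vector and CRABP1, the same order as the sum at 634, 785, 572 and 487 TPM. It was picked for its small distance to the sum over these 4 libraries, so the shared order follows from the choice.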

How the data were processed

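RNA was measured in 4 libraries, 1 per group, so p-values were not computed and no group has a replicate. The authors deposited 1 table of TPM values, each column summing to 1000000. FastQC, Trimmomatic 0.38, featureCounts 2.0.0 and GRCh38 were used, per the submitters' processing notes; not given in the sources used here are the aligner, annotation, strand setting and treatment of multiply matching reads.

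A reference table of gene names gave symbols to 58472 of 58884 identifiers. TPM times the exon length in GENCODE 29 (58611 identifiers) gave whole reads within 0.02 for 90.5% to 91.6% of values of up to 50 reads and 72.4% to 75.8% of all. The step, the value of 1 read, was recovered from simulated reads. That simulation used the same lengths, so it cannot show whether they are those behind the deposited TPM. MT1F and MT1X came out whole after 1 common length factor, and the reads of MT2A and MT1M were rounded. Ratios carry 95% Clopper-Pearson intervals, that of a sum from its effective read number, and floors are 3 reads; both cover counting error only. Log2 differences used TPM + 1 in genes averaging 1 TPM or more.

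The members and lists were chosen with earlier results of these data known. Named are the members, all family genes, the 2 genes of each list with the largest ratio in either line (protein-coding, at least 20 reads), MTF1, SLC30A1, NR3C1, the cluster's neighbours and the 5 genes nearest in pattern; HMOX1, PEG10, PAX8 and the other marker genes given with their zeros were added after their values were seen. SCO2 was left out of its list, having more than 1 identifier. Alternatives were another pseudocount, filter, scaling, unit, gene set, threshold and length. Python 3.11.15, NumPy 2.4.6, pandas 2.3.3, SciPy 1.17.1 and matplotlib 3.10.9 were used.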

Additional observations from a re-analysis of the deposited data

Results flagged for a closer look

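The CRABP1 to vector difference went in opposite directions in the 2 lines for MT2A and for the 7 members summed, each library pair lying beyond its counting interval. The MT2A ratio was 1.22 in FTC-133 and 0.854 in 8505C, so that the first was 1.43 times the second. For the sum the ratios were 1.24 and 0.852, a factor of 1.45. The difference between the lines was not tested, since each group held 1 library. The same opposite pattern was found for 7.17% of 5846 well-read protein-coding genes.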

How the results depend on the processing

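No paired analysis was possible because each group held 1 library and the labels carry no replicate numbers; for the same reason no library could be left out. The members' sum was higher with CRABP1 in FTC-133 and lower in 8505C under every alternative run. Under median-ratio scaling the ratio was 1.18 in FTC-133, and 8505C to FTC-133 was 1.001 with vector, no longer below 1, and 0.710 with CRABP1. Without MT2A the CRABP1 to vector ratio in 8505C was 0.810, its interval then including 1, and the line ratios were 0.177 with vector and 0.111 with CRABP1. The line ratio with CRABP1 was also 0.660 with read counts scaled to library totals, 0.592 with all 21 family genes and 0.651 with principal transcript lengths, the last chosen after seeing the data. Past 2-fold between the lines with vector, 2 members (MT1A and MT1X) were higher under median-ratio scaling, where 2827 of all genes passed upward. At a 1.5-fold threshold the same 2 were higher, where 3905 genes passed upward. At a mean of at least 5 TPM, 1 member (MT1E) was lower, where 1924 genes passed downward. With CRABP1, 1 member (MT1A) was higher with a pseudocount of 0.1, under median-ratio scaling or at 1.5-fold, where 2630, 2652 and 3602 genes passed upward. At 5 TPM 1 (MT1E) was lower, where 2102 genes passed downward. For CRABP1 against vector in 8505C, 1 member (MT1A) was lower at 1.5-fold, where 1341 genes passed downward. These gene numbers count genes that passed, and shares of the genes tested are not given for these settings. MT1E met the 5 TPM minimum through FTC-133 alone. MT1F between the lines with vector was at a log2 difference of -1.93 under median-ratio scaling and -2.32 without mitochondrially encoded genes, from -1.98. MT2A between the lines was at log2 differences of 0.39 with vector and -0.08 with CRABP1 under median-ratio scaling. The causes of these shifts were not tested beyond what the settings do by construction. Depth limits MT1A, MT1G and MT1M, which had at most 22 reads in a library.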

Other observations

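Copper and iron genes, whose products share metal handling with metallothioneins, were also measured. Of 14 copper genes 12 were measured in each line, with 0 past 2-fold with CRABP1 and medians of 0.07 in FTC-133 and -0.08 in 8505C. CCS, the copper chaperone of superoxide dismutase, was at 16.7 and 21.0 TPM in FTC-133 and 36.5 and 27.2 TPM in 8505C, and the metalloreductase STEAP2 at 35.3 and 58.6 TPM and at 1.44 and 1.70 TPM. Of 12 iron genes, 10 were measured in FTC-133 and 1 passed 2-fold upward, the iron regulatory protein ACO1, at 38.0 and 84.8 TPM. The iron exporter SLC40A1 was at 1.77 and 4.05 TPM in 8505C from 39 and 89 reads. HMOX1, the heme-degrading enzyme that heavy metals induce along with metallothioneins, was at 328 and 502 TPM in FTC-133 and 6.24 and 7.20 TPM in 8505C. HMOX1 was chosen after its values were seen. Its line difference had the direction of MT1E, whereas MT1A and MT1X were higher in 8505C. Of the 14 measured genes induced by metal and oxidative stress, 5 were higher and 9 lower in 8505C with vector, and 7 and 7 with CRABP1. Their medians were -0.50 and -0.16, against -0.17 and -0.21 over all genes.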
